A study of Sus scrofa domesticus with 4 samples.

Results

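The genes described here are angiogenic ligands and endothelial genes of porcine endometrium: VEGFA, ANGPT1, ANGPT2 and EDN1 as ligands, KDR and EDNRB as receptors, CDH5 and PECAM1 as junction genes, and the transcription factor gene EPAS1. Members were the non-control probes whose RefSeq accession maps to one of these 9 symbols. This found 14 probes of 8 genes among 43603 probes, of which 6700 carry 1 of 3029 gene names. No probe carried a KDR accession, so KDR was not analysed here. Of the 14 probes, 11 probes of 7 genes were tested, which required that, in treated or in untreated RNA, the probe was well above background on each of the 4 arrays. The only ANGPT1 probe, the dimmer VEGFA probe and the dimmer CDH5 probe did not meet this and are given without a test.

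Endometrial explants were cultured for 24 h with orexin B at 10 nM or without it, and each of 4 Agilent arrays set the RNA of both conditions against each other in Cy5 and Cy3. The donors were 4 gilts (Large White x Polish Landrace, aged 7 to 8 months, 120 to 130 kg) on days 15 to 16 of gestation. Orexin B is a neuropeptide that acts on the orexin receptors. Slices of about 100 mg from the uterine horns, whole tissue with all its cell types, rested for 2 h in medium before the treatment, and control slices received nothing in place of the peptide. The labels do not tie an animal to an array, and cultures were set up in duplicate, so the 4 arrays serve as the replicates. The p-values rest on the spread between arrays that remains after treatment and dye terms are fitted, moderated over all tested probes. That spread may in part be technical. By its own dye labels, each of arrays 1 and 3 held the treated RNA in Cy5, and each of arrays 2 and 4 held it in Cy3. The labelling protocol, which is the same text for all samples, leaves room for a reading with no dye swap, which was run as an alternative.

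Around attachment of the conceptus the endometrium of the pig becomes more vascular. VEGFA binds KDR on endothelial cells and drives their growth and permeability. ANGPT1 and ANGPT2 compete for the receptor TEK, where ANGPT1 stabilises vessels and ANGPT2 loosens them. CDH5 (VE-cadherin) and PECAM1 (CD31) hold endothelial cells together, EDN1 is a vasoconstrictor peptide made by endothelium, EDNRB is one of its receptors, and EPAS1 (HIF-2 alpha) is an oxygen-regulated factor that is abundant in endothelium and can activate VEGFA.

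Array 2, whose scan is dated to a different day, had 46.8% of its Cy5 spots well above background, and the other arrays had 82.4% to 86.7%. In Cy3 the share was 27.8% to 36.2%. Values below are log2 ratios of treated over untreated RNA after loess normalisation, so that 0 means equal signal. For each probe limma fitted a treatment term and a dye term over the arrays, and ± after a fitted ratio is its moderated standard error (n = 4). Over 13781 tested probes with an estimate, limma called 0 for treatment at an adjusted p under 0.05 (0%), and 495 had an unadjusted p under 0.05 (3.59%). Without array 2 it called 17 probes, none of them of the genes described here. The median log2 ratio of all tested probes was 0.02 and the median size of a dye term was 0.22.

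None of the 11 tested probes of these genes passed, at the adjusted or the unadjusted threshold of limma. The smallest unadjusted p was 0.0607, for CDH5, and every adjusted p was 0.999. The fitted log2 ratios lay between -0.39 and 0.08, with standard errors of 0.17 to 0.27. Of the 11 probes, 9 had a ratio below 0, as had 46.9% of all tested probes. With the brightest tested probe of each gene, all 7 genes stood below 0, EDNRB only just at 0.00, with a median of -0.30. PECAM1 and EPAS1 each had another tested probe above 0, at 0.08 and 0.03. Without array 1, 5 of the 7 genes were below 0, and without array 2, 3 or 4 it was 6 of 7. Read as treated in Cy5 on all arrays, 5 of 7 were below 0. In tissue RNA, fewer cells of a type and less RNA per cell cannot be told apart. Centring each array on its median in place of loess moved the median of all tested probes to 0.28. With that scaling 3 of the 7 genes were below 0 and 6 of the 7 below the median of all probes.

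**Figure D1:**
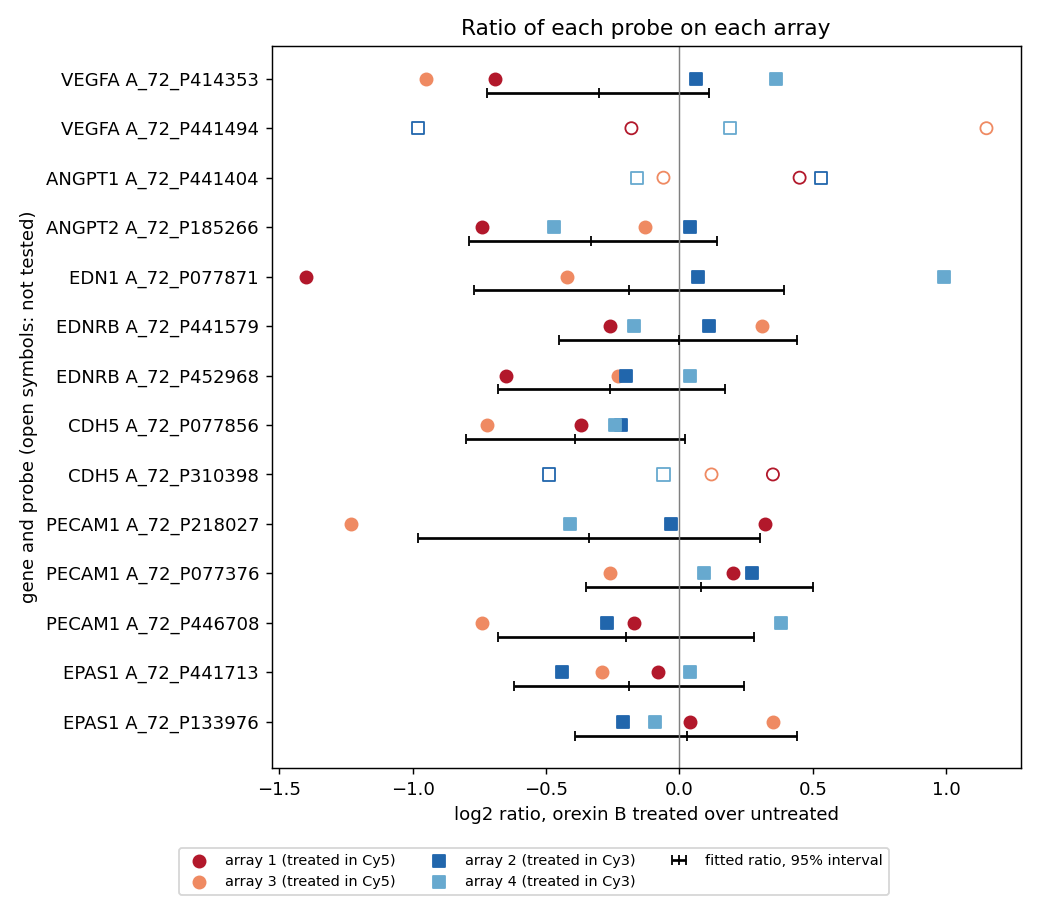
Log2 ratio of treated over untreated RNA (x axis) for each of the 14 probes (y axis); points are single arrays coloured by array and shaped by dye orientation, open symbols are probes that were not tested, and black bars are the fitted ratio with its 95% interval. Every interval includes 0, and only the brighter CDH5 probe lies on one side of 0 on all 4 arrays.

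VEGFA, the principal growth factor of blood vessels, has 2 probes. Its tested probe (A_72_P414353, accession NM_214084) had log2 ratios of -0.69, 0.06, -0.95 and 0.36 on arrays 1 to 4. The arrays with treated RNA in Cy5 were both low and those with treated RNA in Cy3 both slightly high, so the orientations did not overlap; 27.5% of all tested probes lay in this order. The means were -0.82 with treated RNA in Cy5 and 0.21 with treated RNA in Cy3. The fitted ratio was -0.30 ± 0.18 (95% interval -0.72 to 0.11), which is 1.23 times lower in treated RNA (limma adjusted p = 0.999). The dye term of the same fit is the log2 ratio of Cy5 over Cy3 apart from the treatment. It was -0.52 ± 0.18 and so larger in size than the treatment ratio. With the ratios of the scanner software, and equally with the authors' value table, the order turned. The dye term was then -0.27 and the treatment ratio -0.31. Treated RNA had a normalised log2 signal of 9.49 ± 0.15 and untreated RNA one of 9.79 ± 0.62 (SD, n = 4).

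The other VEGFA probe (A_72_P441494) did not follow the first. It was well above background in Cy5 on 4 of 4 arrays but in Cy3 on 1 of 4, and its ratios were -0.18, -0.98, 1.15 and 0.19. On arrays 2 and 3 these lay on the opposite side of 0 from the tested probe. The root mean square difference between the 2 probes over the 4 arrays was 1.20, the largest among the 7 pairs of probes of these genes, of which the others had 0.35 to 0.58. In a fit of all probes without the filter its ratio was 0.05 ± 0.29 and its dye term 0.44, against a dye term of -0.52 for the brighter probe. The VEGFA ratio given above therefore rests on 1 of 2 probes.

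ANGPT2, the angiopoietin that loosens vessel walls, has 1 probe (A_72_P185266, NM_213808). Its ratios were -0.74, 0.04, -0.13 and -0.47 on arrays 1 to 4. Arrays 1 and 4, of opposite dye orientation, were the low ones, and array 2 was at 0. The fitted ratio was -0.33 ± 0.20 (95% interval -0.79 to 0.14), or 1.25 times lower in treated RNA (limma adjusted p = 0.999). It was -0.17 without array 1 and -0.20 without array 4. Its dye term was -0.11 ± 0.20, smaller in size than the treatment ratio. The normalised log2 signal was 12.42 ± 0.43 in treated and 12.75 ± 0.26 in untreated RNA (SD, n = 4).

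ANGPT1, which stabilises vessels, was too dim for a test (A_72_P441404, NM_213959). Its probe was well above background on 4 of 4 arrays in Cy5 and on 1 of 4 in Cy3, that is in treated RNA on 3 arrays and in untreated RNA on 2. Its ratios were 0.45, 0.53, -0.06 and -0.16, so array 2 was highest and array 4 lowest. No direction can be drawn from them, and the balance of the angiopoietins was not measurable at this signal.

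EDN1, the endothelin 1 precursor gene, varied most between arrays. Its probe (A_72_P077871, NM_213882) had ratios of -1.40, 0.07, -0.42 and 0.99 on arrays 1 to 4, an SD of 1.00, where the median SD of all tested probes was 0.44. As for VEGFA, both arrays with treated RNA in Cy5 lay below both with treated RNA in Cy3. The fitted ratio was -0.19 ± 0.25 (95% interval -0.77 to 0.39) and the dye term -0.72 ± 0.25. The fitted ratio without array 1 was 0.06 and without array 2 it was 0.04, so its sign rests on each of these arrays. Without array 3 it was -0.43 and without array 4 -0.42. The probe was well above background in Cy3 on 3 of 4 arrays and in Cy5 on all of them.

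Among the 11 tested probes, VEGFA and EDN1 were the ones with an unadjusted limma p under 0.05 for the dye term (0.0220 and 0.0219, both with an adjusted p = 0.308 by limma). Over all tested probes 14.1% had such a dye p, and 9.43% had it with Cy3 the brighter dye, as for these genes. Limma called 0 probes for dye after adjustment (0%). The dye term was larger in size than the treatment ratio for 6 of the 11 probes, against 64.1% of all tested probes. In 5 of the 11 the ratios of the dye orientations did not overlap, against 48.7% of all. Neither share was read as a result about these genes. With all probes split by mean signal into 4 equal classes, 11%, 14.2%, 15.8% and 15.6% had a dye p under 0.05, from the dimmest to the brightest class. With median centring the median dye term of all probes was 0.75. On that scale VEGFA had a dye term of 0.09 and EDN1 one of -0.44, both still below the other tested genes of this group. Neither was called for dye there (limma adjusted p = 0.693 and 0.152). The brightest tested probes of ANGPT2, CDH5, PECAM1, EDNRB and EPAS1 were called (limma adjusted p from 0.00947 to 0.0266), as were 6868 of all tested probes.

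**Figure D2:**
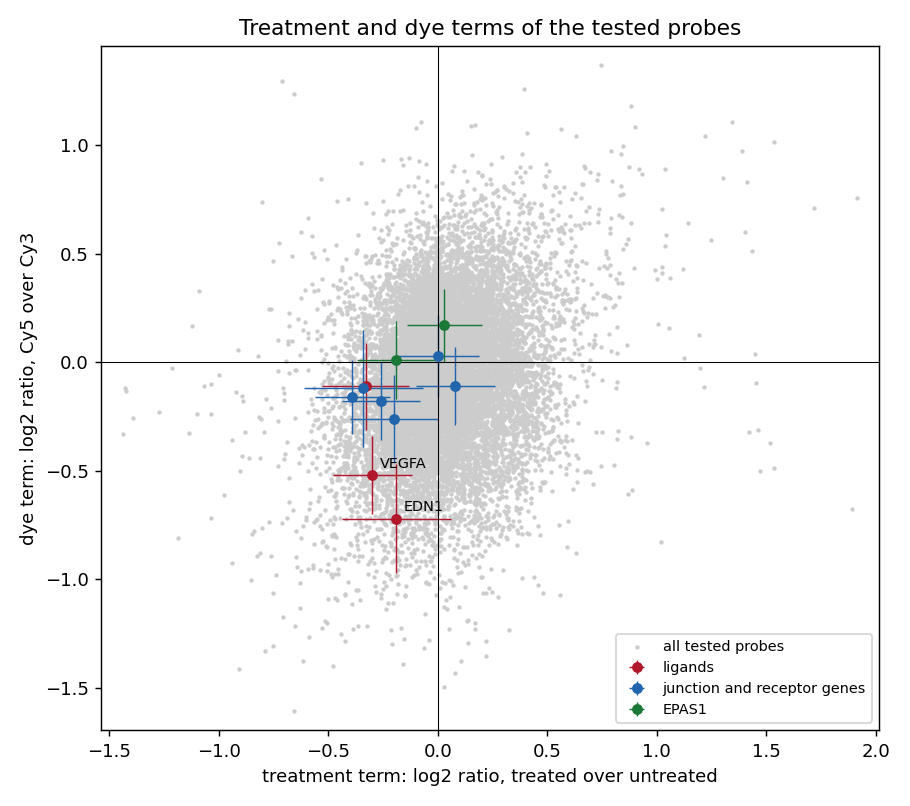
Treatment term (x axis, log2 ratio of treated over untreated) against dye term (y axis, log2 ratio of Cy5 over Cy3) for all tested probes in grey and for the 11 probes described here in colour by role, with standard errors as bars. VEGFA at a dye term of -0.52 and EDN1 at -0.72 lie below the other coloured points, while all coloured points lie within the grey cloud.

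CDH5, the cadherin of endothelial junctions, gave the ratio farthest from 0 and the one with the least spread between arrays relative to its size. Its brighter probe (A_72_P077856, NM_001001649) had ratios of -0.37, -0.22, -0.72 and -0.24 on arrays 1 to 4. All 4 arrays lay below 0, array 3 most. Over all tested probes 3.67% lay below 0 and 3.74% above 0 on every array, 7.41% in sum, against 1 of these 11 probes. The fitted ratio was -0.39 ± 0.17 (95% interval -0.80 to 0.02), or 1.31 times lower in treated RNA (limma unadjusted p = 0.0607, adjusted p = 0.999). The dye term was -0.16 ± 0.17. The ratio kept its sign under the 15 alternatives run, between -0.48 and -0.05, as did that of the tested VEGFA probe. These alternatives are not independent checks. Leaving out the dye term, array weights and other filters cannot move this ratio, which stayed at -0.39. The scanner's ratios and the authors' value table gave the same -0.34. The value of -0.05 came with median centring, where the ratio was -0.33 against the median of all probes. The normalised log2 signal was 12.94 ± 0.37 in treated and 13.33 ± 0.27 in untreated RNA (SD, n = 4).

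The other CDH5 probe (A_72_P310398) was dim, well above background in Cy3 on 1 of 4 arrays, and was not tested. Its ratios of 0.35, -0.49, 0.12 and -0.06 had the sign of the brighter probe on 2 of 4 arrays.

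PECAM1, the platelet and endothelial adhesion molecule, has 3 tested probes (NM_213907) that did not share a sign. The brightest (A_72_P218027) had ratios of 0.32, -0.03, -1.23 and -0.41 on arrays 1 to 4, high on array 1 and lowest on array 3. Its fitted ratio was -0.34 ± 0.27 (95% interval -0.98 to 0.30; limma adjusted p = 0.999). Without array 3 it was 0.05, so its sign rests on that array, and without array 1 it was -0.73. The probe A_72_P446708 stood at -0.20 ± 0.20, or -0.04 without array 2, and the probe A_72_P077376 at 0.08 ± 0.18. All 3 probes were below 0 on array 3, at -1.23, -0.74 and -0.26. On array 3 CDH5 was also at its lowest. Outside array 3 the 3 PECAM1 probes differed in sign on each array.

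EDNRB, the endothelin receptor B gene, has 2 tested probes (NM_001038002). The brighter one (A_72_P441579) had ratios of -0.26, 0.11, 0.31 and -0.17 on arrays 1 to 4, 2 on each side of 0. Its fitted ratio was 0.00 ± 0.19 (95% interval -0.45 to 0.44). The dimmer one (A_72_P452968) had ratios of -0.65, -0.20, -0.23 and 0.04 and a fitted ratio of -0.26 ± 0.18, or -0.15 without array 1. The 2 probes had the same sign on 1 of 4 arrays, the first. The 95% interval of the brighter probe reaches from 0.734-fold to 1.36-fold and that of the dimmer one from 0.623-fold to 1.12-fold. These bounds are not a limit of detection, which was not computed.

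EPAS1, the HIF-2 alpha gene, stood near 0 in its ratio but differed much between arrays in its level. The brighter of its 2 tested probes (A_72_P441713, NM_001097420) had ratios of -0.08, -0.44, -0.29 and 0.04, with a fitted ratio of -0.19 ± 0.18 and a dye term of 0.01 ± 0.18. The fitted ratio was -0.07 without array 2 and -0.31 without array 4. The other probe (A_72_P133976) stood at 0.03 ± 0.17. The mean log2 signal of both channels of the brighter probe was 14.95, 12.67, 13.27 and 13.82 on arrays 1 to 4, a range of 2.28, after the arrays had been brought to one distribution of signals. In the dimmer probe it was 11.24, 10.29, 8.94 and 9.52, a range of 2.29. Array 1 was highest with both probes, but array 2 was lowest with the brighter probe and array 3 with the dimmer one. The ratios within an array were at most 0.44 in size. The SD of this level between arrays was 0.97 and 0.99 for the 2 probes, against a median of 0.35 over all tested probes, of which 1.39% exceeded the brighter EPAS1 probe. The other tested probes of these genes had 0.27 to 0.53. Since the labels name no animal for an array, a difference between animals and one between hybridisations cannot be told apart.

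**Figure D3:**
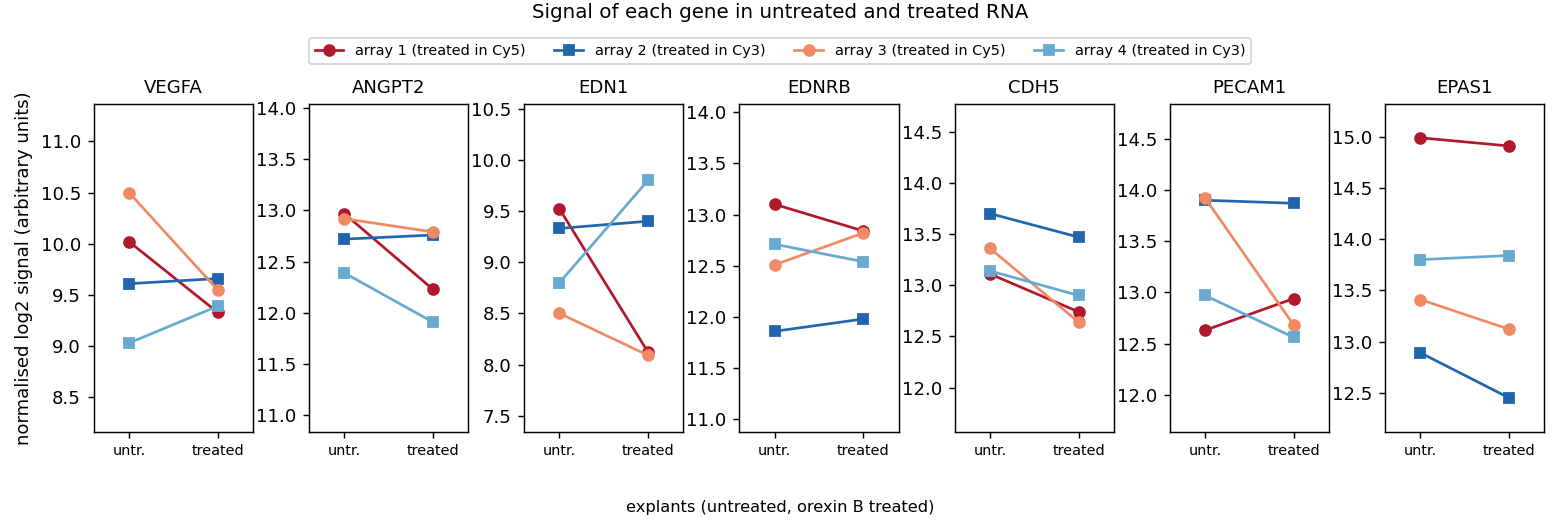
Normalised log2 signal (y axis, arbitrary units, same span in each panel) in untreated and treated RNA for the brightest tested probe of each gene; lines join the 2 channels of an array and colours mark the array. EPAS1 lines lie far apart and nearly flat, with levels from 12.67 to 14.95 on average per array, whereas each of the other genes has lines that cross. Levels of different genes are not to be compared.

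The ligands were then set against the junction and receptor genes on each array, with the brightest tested probe of each gene and no test. The mean log2 ratio of the 3 ligand genes (VEGFA, ANGPT2 and EDN1) was -0.94, 0.06, -0.50 and 0.29 on arrays 1 to 4. That of the 3 endothelial genes (CDH5, PECAM1 and EDNRB) was -0.10, -0.05, -0.55 and -0.27. Ligands were thus far below the endothelial genes on array 1, above them on array 4, and close to them on arrays 2 and 3. Over all arrays the ligands averaged -0.27 ± 0.56 and the endothelial genes -0.24 ± 0.22 (SD, n = 4). Their difference was -0.03 ± 0.59, far smaller than its spread between arrays. By dye orientation the difference was -0.39 with treated RNA in Cy5 and 0.34 with treated RNA in Cy3, which is a dye term of -0.36. Read as treated in Cy5 on all arrays, the difference was -0.36, since that reading turns the dye term into the treatment.

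**Figure D4:**
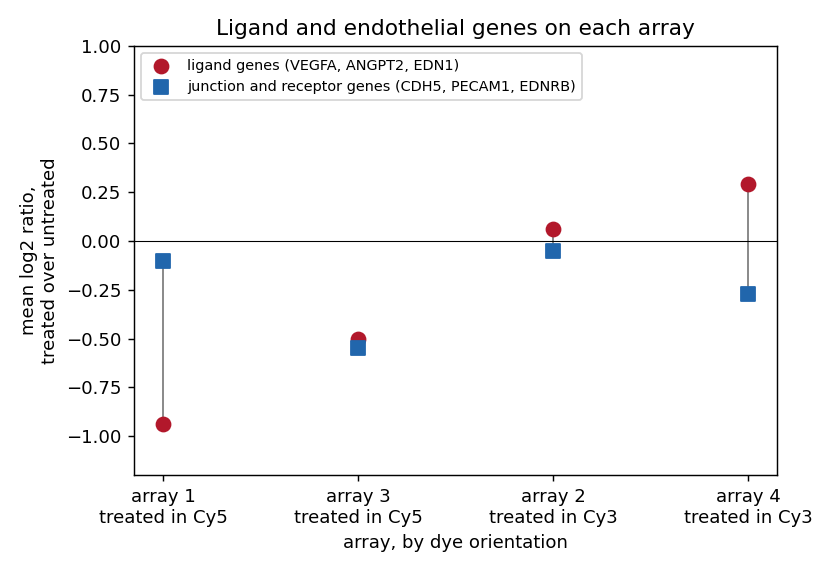
Mean log2 ratio of treated over untreated RNA (y axis) of the 3 ligand genes and of the 3 junction and receptor genes on each array, with arrays ordered by dye orientation on the x axis. Ligand means run from -0.94 to 0.29 and are lower on both arrays with treated RNA in Cy5; endothelial means stay between -0.55 and -0.05.

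The scanner software gives each spot a ratio and a p-value from an error model of that single array. Of the 44 ratios of the 11 tested probes, 11 had such a p under 0.05, against 34.8% over all tested probes. For EDN1 the scanner's log2 ratio was -2.08 on array 1 and 1.19 on array 4, both with such a p and of opposite sign. The tested VEGFA probe had such a p on array 3 (-0.71), ANGPT2 on arrays 1 (-1.09) and 4 (-0.49), and CDH5 on array 4 (-0.51). The VEGFA probe that was not tested had one on array 3 with the opposite sign (2.29) and on array 2 (-1.48). The brighter EDNRB probe had one on array 1 (-0.60), and the PECAM1 probe A_72_P446708 on array 3 (-0.77). The brightest PECAM1 probe had one on array 1 (0.47) and, with the opposite sign, on arrays 3 (-0.86) and 4 (-0.66). These values compare the 2 RNAs of 1 array, not the conditions.

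A list of endothelial markers, CDH5 and PECAM1 among them, was measured beside CDH5, with no test between its genes. Of 24 listed markers 10 were on the array by name and 8 were tested, with 0 called by limma and 0 at an unadjusted p under 0.05. Their median log2 ratio was -0.07, with 6 of 8 below 0. With median centring 1 of 8 was below 0 and 6 of 8 were below the median of all probes. The median was -0.27 without array 1, -0.03 without array 2 and, with 1 of 8 below 0, 0.16 without array 3. Read as treated in Cy5 on all arrays, it was 0.03. ENG, a co-receptor for transforming growth factor beta on endothelium, stood at 0.28 ± 0.20 and was at 0.90 on array 1. The von Willebrand factor gene VWF stood at -0.07 ± 0.23 and was at 0.88 on array 1. CD34 stood at -0.08 ± 0.29, from 3 arrays because its spot on array 4 was an outlier, CLDN5 at -0.08 ± 0.20, ICAM2 at -0.01 ± 0.18 and SELP at 0.19 ± 0.23. On array 1 all 6 markers other than CDH5 and PECAM1 were above 0, with a median of 0.58. Their median was -0.23, -0.22 and -0.01 on arrays 2 to 4. CDH5 was at -0.37 on array 1, below all of them.

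**Figure D5:**
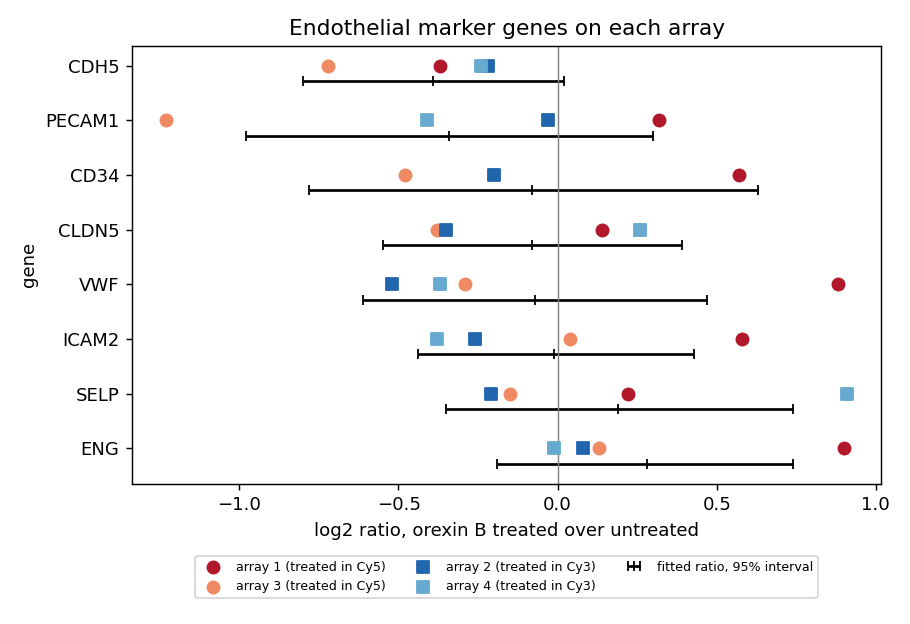
Log2 ratio of treated over untreated RNA (x axis) on each array for the 8 tested endothelial marker genes (y axis), with the fitted ratio and its 95% interval in black; CD34 has 3 arrays. Array 1 is above 0 for 7 of the 8 genes and CDH5 is the exception.

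Markers of other cells of the explant moved between arrays as well, and their part in the ratios above was not tested. The 4 tested pericyte and smooth muscle markers had array medians of 0.54, -0.69, 0.03 and -0.39, with DES, the intermediate filament of muscle, at 1.48 on array 1 and -1.91 on array 4 (fitted -0.53 ± 0.38). RGS5, a pericyte gene, stood at 0.39 ± 0.19, while 3 of the 4 markers were below 0. CNN1 stood at -0.21 ± 0.19 and the brightest ACTA2 probe at -0.06 ± 0.19, with other ACTA2 probes from -0.17 to 0.39. The 5 epithelial markers had array medians of -0.77, -0.65, -0.43 and 0.61, with the claudin genes CLDN3 at -0.54 ± 0.21 and CLDN4 at -0.51 ± 0.22, EPCAM at -0.26 ± 0.24, CDH1 at -0.12 ± 0.26 and, on the other side of 0, the keratin gene KRT8 at 0.35 ± 0.32. The 3 fibroblast markers had array medians of 0.76, 0.19, 0.67 and -0.67, with the matrix proteoglycan genes DCN at 0.23 ± 0.19 and LUM at 0.20 ± 0.24. The 4 macrophage markers had array medians of -0.25, -0.17, -0.79 and -0.64, with CD86 at -0.68 ± 0.19 and AIF1 at -0.59 ± 0.26, CD14 at -0.42 ± 0.20 and, on the other side of 0, CD163 at 0.18 ± 0.22. The 3 trophoblast markers had array medians of 0.15, -0.03, 0.18 and -0.44, with 2 of 3 below 0 in the fit. The transcription factor gene TFAP2C stood at 1.14 ± 0.19 with a dye term of 0.64, and its other tested probe at 0.55 ± 0.18. IL1B2 stood at -0.42 ± 0.18 and CYP19A1 at -0.15 ± 0.20. With median centring the pericyte and smooth muscle, epithelial and trophoblast medians went from -0.14, -0.26 and -0.15 to 0.18, 0.18 and 0.16. Against the median of all probes they were then -0.11, -0.10 and -0.12. Macrophage and fibroblast medians kept their side there, at -0.25 and 0.58. Without array 2 the epithelial median was 0.01. Read as treated in Cy5 on all arrays, the macrophage median was 0.12, against -0.51 in the main fit. Limma called 0 genes of these lists after adjustment. At an unadjusted p under 0.05, which 1.72% of all tested probes reached on the higher and 1.87% on the lower side, there were CLDN3 and CD86 on the lower and TFAP2C on the higher side.

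Of 25 listed angiogenic growth factors 10 were on the array by name and 7 were tested, VEGFA, ANGPT2 and EDN1 among them. Their median log2 ratio was -0.19, with 6 of 7 below 0, ANG only just. Without array 2 it was -0.09 with 4 of 7 below 0, and read as treated in Cy5 on all arrays it was 0.05 with 3 of 7 below 0. With median centring 3 of 7 were below 0, at a median of -0.23 against all probes. Limma called 0, with 0 at an unadjusted p under 0.05. ADM, the vasodilator adrenomedullin, stood at -0.28 ± 0.20 with ratios of -0.09, -0.42, 0.45 and -1.06. ANGPTL4, PTN and ANG stood at -0.13 ± 0.19, 0.09 ± 0.20 and 0.00 ± 0.17. ADM, ANGPTL4 and PTN had dye terms of 0.46, 0.47 and 0.57, opposite in sign to those of VEGFA and EDN1.

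Of 24 listed receptors of these ligands 5 were tested, with a median of 0.00 and 3 of 5 below 0. With median centring 0 of 5 were below 0 and 2 of 5 below the median of all probes. MET, the receptor of hepatocyte growth factor, stood at 0.49 ± 0.19 with ratios of 1.03, 0.04, 0.52 and 0.36 across arrays 1 to 4. It was the 1 gene of the list with an unadjusted p under 0.05 (0.0341 by limma, and 0.999 after adjustment), a side on which 1.72% of all tested probes had one. NOTCH4, a Notch receptor of endothelium, stood at 0.12 ± 0.18, and EDNRA, the other endothelin receptor gene, at -0.07 ± 0.17 beside 0.00 for EDNRB. RAMP2, a partner of the adrenomedullin receptor, stood at -0.06 ± 0.21.

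The 7 tested vasoactive genes, which include EDN1 and both endothelin receptor genes, had a median of -0.19, and none stood above 0, EDNRB being at 0.00. The median was -0.11 without array 2 and -0.12 without array 4, and read as treated in Cy5 on all arrays it was 0.01 with 5 of 7 above 0. With median centring 2 of 7 were below 0 and 6 of 7 below the median of all probes. NOS2 stood at -0.29 ± 0.19 and NOS3, the endothelial nitric oxide synthase gene, at -0.05 ± 0.20, while ACE stood at -0.19 ± 0.17. Limma called 0, with 0 at an unadjusted p under 0.05.

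The 7 tested genes of the HIF group, EPAS1 among them, had a median of -0.28 with 7 of 7 below 0, where 46.9% of all tested probes were. It was -0.44 without array 2, and read as treated in Cy5 on all arrays 4 of 7 were below 0. With median centring the median was -0.08 against all probes and 2 of 7 were below 0. DDIT4, a hypoxia-induced inhibitor of mTOR signalling, stood at -0.73 ± 0.17 and PDK1, which holds back pyruvate oxidation, at -0.53 ± 0.22. These 2 of 7 had an unadjusted limma p under 0.05 on the lower side, as had 1.87% of all tested probes, and an adjusted p = 0.999. HIF1A, which encodes the other main oxygen-regulated alpha subunit, stood at -0.15 ± 0.30 with ratios of -1.23, 0.87, 0.17 and -0.43, and ADM, a HIF target, is given above.

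Among 5 tested inhibitors of vessel growth the median was -0.48, with 3 of 5 below 0. With median centring it was -0.10, also with 3 of 5 below 0, and read as treated in Cy5 on all arrays it was 0.41 with 1 of 5 below 0. Leaving out array 1 gave 0.01 and leaving out array 3 gave -0.85. In the main fit the 3 below 0 were the chemokine genes CXCL11, CXCL9 and CXCL10, which are also interferon targets. They stood at -0.78 ± 0.19, -0.75 ± 0.23 and -0.48 ± 0.32, so the median is the value of CXCL10. THBS1 and SERPINF1 stood on the other side of 0, THBS1 at 0.12 ± 0.19. SERPINF1, which encodes the anti-angiogenic pigment epithelium-derived factor, had a ratio of 0.47 ± 0.17 and a dye term of 0.72, the larger of the pair. Its ratios were 1.33, -0.22, 1.06 and -0.29, high where treated RNA was in Cy5. CXCL11, CXCL9 and SERPINF1 had an unadjusted limma p under 0.05, 2 on the lower side (1.87% of all tested probes) and 1 on the higher (1.72%). Limma called 0 after adjustment.

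The genes whose 4 ratios lay nearest to those of VEGFA were sought among 1597 named genes outside the group by the root mean square difference over the 4 arrays. They were MRPL24, TRAF6 and UBE2D1, at 0.10, 0.11 and 0.13, where the median gene was at 0.73. MRPL24 had ratios of -0.59, -0.09, -0.97 and 0.44 on arrays 1 to 4. The dye terms of these 3 genes were -0.48, -0.42 and -0.41, beside -0.52 for VEGFA. Nearest to CDH5 were BTG1, SLA-DOA and CXCR4, at 0.02, 0.08 and 0.09, where the median gene was at 0.58. BTG1 had ratios of -0.35, -0.23, -0.71 and -0.22 on arrays 1 to 4. Genes picked as the nearest of 1597 over 4 values are close by selection, and a shared regulation was not tested.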

How the data were processed

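The scanner output deposited by the authors holds spot and local background intensity per channel, from Feature Extraction 10.7.3.1 for array design 026440, per the file headers. Each spot in these deposited files also has the scanner's log10 ratio (Cy5 over Cy3) and a p-value from its error model. The value table deposited by the authors holds log2 ratios of treated over untreated RNA. Its columns correlate with the scanner's ratio at 1 (arrays 1 and 3) or -1 (arrays 2 and 4) and are not centred, with medians of 0.18, 0.29, 0.01 and 0.03.

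Background was corrected on median spot signals by normexp (offset 50), followed by loess within arrays, both in limma 3.58.1 under R 4.3.3. Control and outlier spots had no weight in the loess curve and were left out afterwards; 0 spots of the 14 probes were outliers and 0 were saturated. For all 13783 tested probes, of which 2 had no estimate, lmFit and eBayes fitted treatment and dye terms (2 residual and 5.09 prior degrees of freedom). P-values are two-sided, with Benjamini-Hochberg adjustment over all tested probes. Of these steps, only the fit was run on simulated ratios, with larger effects than those fitted for these genes and less noise than in the data. That run checks the arithmetic of the fit and not the earlier steps or the power here. Levels were taken after A-quantile scaling between arrays. Probes were named through RefSeq; the files name no genome build, and no coordinates are given. The number of arrays limits the precision.

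The members and gene lists were chosen with earlier results of these data known. The named genes are all members, list genes with an unadjusted p under 0.05 (or the 2 with the smallest p in a list with fewer than 2), and the 3 genes nearest to VEGFA and to CDH5. Other tested genes of the lists were chosen after their values were seen. The alternatives are given in the closing section.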

Additional observations from a re-analysis of the deposited data

Results flagged for a closer look

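Among 41 sets of 4 array values checked with Dixon's criterion, 2 held an array far from the others, where chance alone gives about 5% of sets. VWF was at 0.88 on array 1, with the other arrays at -0.52, -0.29 and -0.37. ENG was at 0.90 on array 1, with the other arrays between -0.01 and 0.13. This number is close to what chance gives.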

How the results depend on the processing

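None of the 11 tested probes was called for treatment by limma under any of the 15 alternatives (scanner ratios, the authors' value table, median centring, no background correction, normexp offset 0, no dye term, 2 other filters, array weights, outlier spots kept, all arrays read as treated in Cy5, and each array left out); the smallest adjusted p was 0.268, for EDN1 with all arrays read as treated in Cy5. VEGFA lay between -0.52 and -0.03 and CDH5 between -0.48 and -0.05. The difference of ligand and endothelial genes lay between -0.36 and 0.19. For changed directions below, the cause was not tested.

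Over all tested probes, treatment calls ran from 0 to 17 with an array left out (17 without replicate 2, 14 higher and 3 lower), and dye calls from 0 to 6. With median centring limma called 6868 probes for dye. Several treatment ratios crossed 0 there: ANGPT2 0.05, the PECAM1 probes A_72_P218027 0.01 and A_72_P446708 0.00, the EDNRB probes A_72_P441579 0.39 and A_72_P452968 0.05, and EPAS1 A_72_P441713 0.26. Dye terms there, for the brightest tested probes, were 0.09 for VEGFA and -0.44 for EDN1, neither of them called. They were 1.04 for ANGPT2, 1.07 for CDH5, 1.12 for PECAM1, 1.17 for EDNRB and 1.35 for EPAS1, all called by limma. With the scanner's ratios and equally with the authors' table, PECAM1 A_72_P077376 stood at -0.12 and EPAS1 A_72_P133976 at -0.01, with dye terms of 0.03 for CDH5, 0.06 for PECAM1 and -0.09 for EDNRB. With all arrays read as treated in Cy5, PECAM1 A_72_P077376 stood at -0.11, EDNRB A_72_P441579 at 0.03 and EPAS1 A_72_P441713 at 0.01.

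With each array left out in turn, ratios that crossed 0 ranged from -0.43 to 0.06 for EDN1, -0.73 to 0.05 for PECAM1 A_72_P218027, -0.04 to 0.19 for A_72_P077376, -0.15 to 0.14 for EDNRB A_72_P441579 and -0.05 to 0.10 for EPAS1 A_72_P133976. Dye terms ranged from -0.26 to 0.04 for ANGPT2, -0.51 to 0.27 for PECAM1, -0.12 to 0.17 for EDNRB and -0.11 to 0.13 for EPAS1. A filter on every channel leaves no value for EDN1 and EPAS1 A_72_P133976. Signal over background limits ANGPT1 and the dimmer VEGFA and CDH5 probes.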
